A study of Xenopus laevis with 6 samples.

Results

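The Etv6 peaks at klf4.L and klf15.L are 2 of the 9128 consensus peaks that Etv6 ChIP-seq gave in the somites of Xenopus laevis. Etv6 is an ETS family transcription factor best known as a repressor. The peaks were identified by position, as the list entries that overlap the intervals which the study's table of putative direct targets gives for these genes on chromosomes 1L and 4L. All consensus peaks within 1 Mb of each were taken as its neighbourhood. The study immunoprecipitated Etv6 with a custom antibody from manually dissected somites of wild-type J-strain embryos at stage 22, in 3 ChIP samples, each with an input that received no antibody. By the study's methods, the dissected pieces included neighbouring axial and endodermal tissue, so a peak cannot be assigned to the somitic cells alone. No knockdown or other treatment is part of the ChIP-seq series.

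Klf4 and Klf15 are Krüppel-like factors, transcription factors that bind GC-rich and CACCC-type elements through zinc fingers at their C-terminus, and that share this kind of site with the Sp factors. In mammals, Klf4 acts in pluripotency, epithelial differentiation and endothelial cells, and Klf15 regulates glucose, lipid and amino acid metabolism in muscle, heart and liver. X. laevis is allotetraploid, with an L and an S subgenome, and RefSeq lists an L and an S copy of both genes. ChIP-seq finds the stretches of chromatin that an antibody against a factor enriches over input, whether the factor touches DNA itself or is held there by another protein. The study placed both genes among those with a peak at the transcription start site (TSS) and with lower expression in Etv6-deficient somites. It followed klf4 alone, with ChIP-qPCR, in situ hybridization, RT-qPCR, western blot and reporter assays, and describes it as directly activated by Etv6. The qPCR primers and the in situ probe were made to detect the L and S copies together, so ChIP-qPCR, RT-qPCR and in situ hybridization do not single out klf4.L. The reporter fragment, in contrast, was cloned with primers that the study names for klf4.L. By the study's account, its activity was lower in Etv6-deficient embryos. For klf15.L, the evidence is its entry in the table of putative direct targets. Those experiments were not analysed here, and the peak list alone carries no information on the direction of regulation.

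For each peak, the list gives where it lies and a running number, but no enrichment, height or value per replicate. Peaks called in all 3 replicates were kept. By the study's methods the peak sets of the replicates were merged, so a length in the list can exceed that of the peak in any single replicate. The strength of a peak and the error of its length between replicates are therefore unknown from these data. No difference in length or spacing below could be set against replicate error or tested. Read depth is not in the list, but the study reports it for each library. Among the ChIP samples, uniquely mapped reads were fewest in replicate 3, where each listed peak also had to be called. What this did to peaks missing from the list was not tested.

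In the v9.1 genome, the peak at klf4.L was found at chr1L:118370098-118370771 and was 675 bp long. That at klf15.L was found at chr4L:127520108-127520622, and was 516 bp long, 159 bp shorter than that of klf4.L. The lengths fell on either side of the median of the list, which was 543 bp. Of all peaks in the list, 68.6% did not exceed the klf4.L peak in length, whereas for klf15.L this share was 45.2%. Both lay inside the range that holds the middle of the list, from a lower quartile of 415 bp to an upper quartile of 743 bp. The study's table lists 545 peaks at direct target genes, which are genes with a peak at the TSS and changed expression without Etv6. Among these, the klf4.L peak ranked 162nd and the klf15.L peak 308th from the longest. The 102 consensus peaks over 2 kb did not include them. The longest direct target peak measured 1699 bp. Being direct target peaks therefore decided this beforehand, and it is not particular to klf4.L or klf15.L. By the study's account, its long peaks had no association with genes of changed expression.

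**Figure D1:**
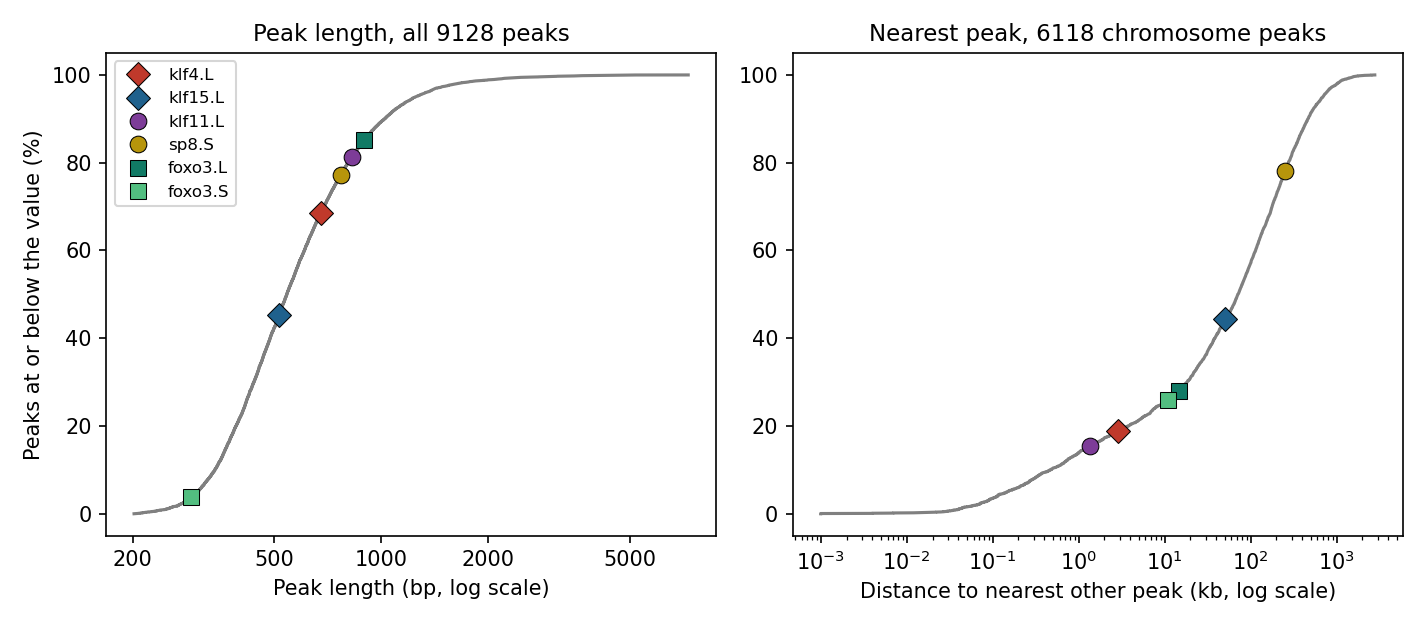
Cumulative share of peaks (%) by peak length in bp for all 9128 consensus peaks (left) and by edge-to-edge distance to the nearest other peak in kb for the 6118 peaks on chromosomes (right), both on log axes. Diamonds mark klf4.L (675 bp, nearest peak at 2.85 kb) and klf15.L (516 bp, 50.7 kb), circles klf11.L and sp8.S, and squares foxo3.L and foxo3.S. The klf4.L and klf15.L peaks lie between the quartiles of the length curve, and foxo3.S lies at its lower end.

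The position of the genes in the v9.1 annotation was not used here, and the assignment of each peak to its gene is the study's. It was checked against the gene order of the RefSeq table, which is built on the later v10.1 genome. In that order klf4.L lies between gatad2a.L and abhd17b.L, the nearest direct target genes on either side that matched by symbol. In v9.1, the peaks of these genes bound 18.3 Mb of chromosome 1L, and the klf4.L peak is 1 of the 24 consensus peaks between them. The next named genes beside klf4.L were rad23b.L, a nucleotide excision repair gene, and znf462.L on the side of lower positions. On the other side they were mtap.L, which encodes an enzyme of methionine salvage, and cdkn2b.L, which encodes a cyclin-dependent kinase inhibitor. None of these 4 genes was in the study's table under that name. For klf15.L, the flanking direct targets were twf2.L and mcm2.L, a gene of the replicative helicase. Their peaks bound 7.30 Mb of chromosome 4L, and klf15.L is 1 of the 17 peaks in between. Its next named genes were cfap100.L, zxdc.L, aldh1l1.L and slc41a3.L, none of them listed as direct targets. Gene order therefore put both peaks in the right interval, but the intervals are too wide to place a peak at a TSS.

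In its surroundings, the klf4.L peak was close to another peak on one side and far from any on the other. A peak of 514 bp began 2.85 kb from it towards higher positions, at chr1L:118373621-118374133. A further peak, of 417 bp, followed at 21.2 kb. Towards lower positions, the nearest peak was 433 kb away. The klf4.L peak was the longest of this group of 3. On chromosomes, 18.8% of consensus peaks had another peak as near as 2.85 kb or nearer, and among direct target peaks on chromosomes this share was 6.02%.

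The klf15.L peak, in contrast, stood alone within 50 kb. Its nearest neighbour lay 50.7 kb away towards lower positions, and the nearest one towards higher positions 255 kb away. The distance to the nearest peak was within the range common in the list, since 44.5% of the chromosome peaks had a neighbour as near or nearer, and the median over them was 71.3 kb. For direct target peaks the median was 98.3 kb.

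Within 1 Mb, the klf4.L peak had 5 other peaks, 3 towards lower and 2 towards higher positions. Their lengths ran from 417 to 722 bp with a median of 626 bp. In position order they measured 675, 722, 626, 514 and 417 bp, at distances of 996, 617 and 433 kb below the klf4.L peak and 2.85 and 21.2 kb above it. Only the peak at 617 kb was longer than that of klf4.L, and the farthest one had exactly its length. That farthest peak, near the edge of the neighbourhood, is the one assigned to LOC549668.L, the sole other direct target within 1 Mb. Together the 5 neighbours covered 2954 bp. No peak over 2 kb was among them.

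The klf15.L peak had 9 other peaks within 1 Mb, 7 of them towards lower and 2 towards higher positions. Lengths ran from 413 to 2835 bp with a median of 680 bp, and 5 of the 9 neighbours were longer than the klf15.L peak itself. The neighbours covered 8195 bp, of which the peak of 2835 bp was the largest part. None was a direct target peak. The nearest direct target peak on either side was that of mcm2.L, at 1.89 Mb. The neighbourhoods thus differed in count (9 against 5) and in the longest neighbour (2835 against 722 bp), but with 1 locus each and no independent peaks this was not tested. With peaks less than 1 kb apart joined, the counts were 6 against 5, so most of the difference in count depends on how peaks are split.

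**Figure D2:**
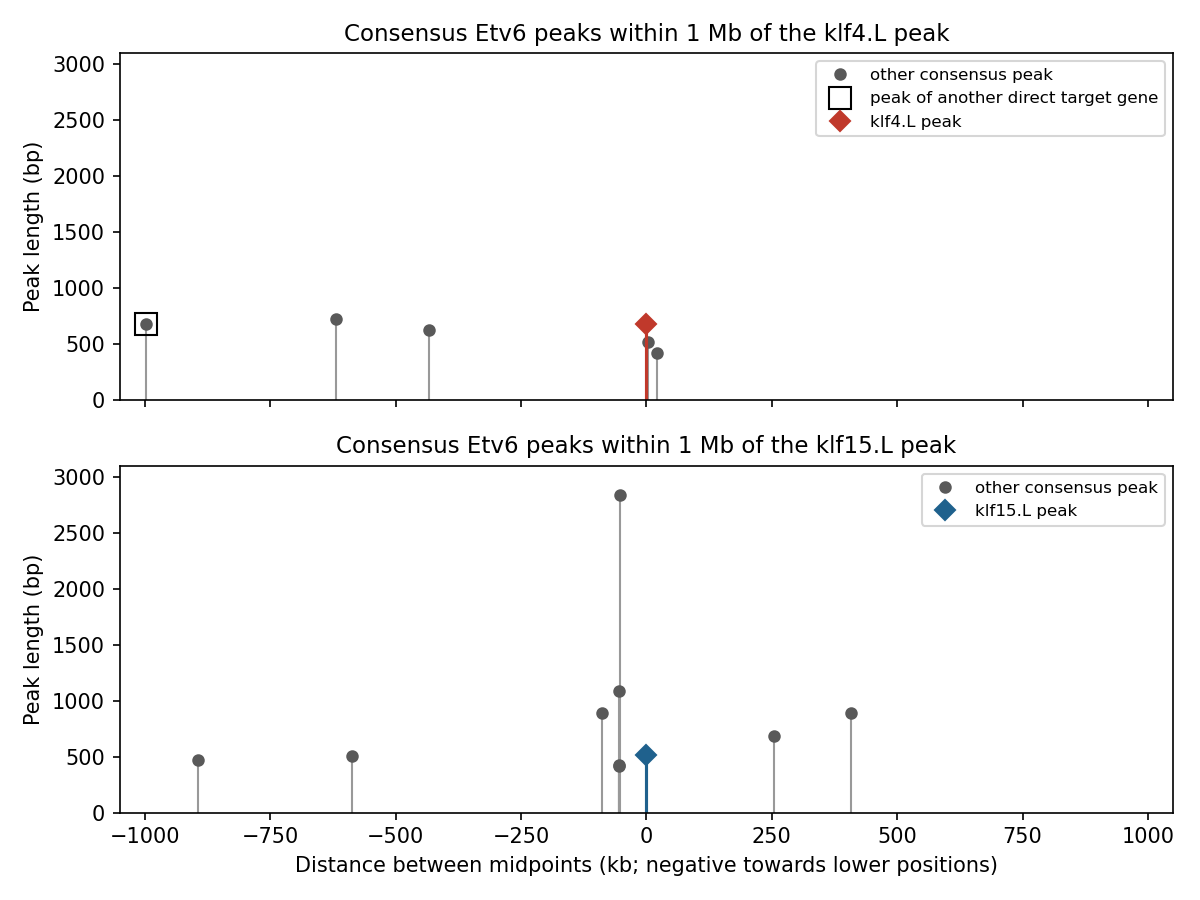
Length in bp of each consensus peak within 1 Mb of the klf4.L peak (top) and of the klf15.L peak (bottom), against the distance between midpoints in kb, negative towards lower positions. Diamonds are the Klf peaks, grey points the other peaks, and the open square the peak of LOC549668.L. No peak lies between 21.8 kb and the right edge at klf4.L, and the group with the 2835 bp peak stands just left of klf15.L.

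The neighbours of klf15.L were not evenly spread. Those towards lower positions included a group of 4 peaks within 5.07 kb, at chr4L:127464323-127469393. They measured 1090, 426, 413 and 2835 bp in position order, and the gaps between them were 237, 4 and 67 bp. The peak of 2835 bp, at chr4L:127466560-127469393, is the 37th longest of the list, longer than or equal to 99.6% of the peaks, and is the one nearest to klf15.L. Another peak, of 890 bp, lay 88.0 kb from klf15.L on the same side. Of the 5172 groups obtained on chromosomes when peaks less than 10 kb apart were joined, 1.43% held 4 or more peaks and 88.2% a single peak. Of the 515 direct target peaks on chromosomes, 3 (0.583%) had a peak over 2 kb within 100 kb, against 211 of all 6118 chromosome peaks (3.45%). The 3 were klf15.L, abhd17b.S, with a peak of 3306 bp at 34.1 kb, and dnmt1.L, which encodes the maintenance DNA methyltransferase, with a peak of 2727 bp at 10.1 kb. These counts were made after the peak beside klf15.L had been seen, and are given as a description. Direct target peaks also had fewer close neighbours of any length. On chromosomes, 10.3% of them had another peak within 10 kb, against 25.4% of all peaks. With gaps as small as 4 bp, the number of peaks in the group depends on where a peak is taken to end, and with peaks less than 1 kb apart joined klf15.L had 6 neighbours within 1 Mb.

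The stretch above the klf4.L group was bare of consensus peaks. From the end of the 417 bp peak, the next peak on chromosome 1L began 5.77 Mb further on, a peak of 354 bp at chr1L:124158754-124159106. This was the widest of the 435 gaps between successive peaks on 1L and the 3rd widest of 6100 on all chromosomes. The number of other peaks around klf4.L rose little with distance, from 2 within 100 kb to 3 within 500 kb, 5 within 1 Mb and 6 within 2 Mb. The median over chromosome peaks went from 1 within 100 kb to 11 within 2 Mb. Mappability and assembly gaps in this stretch were not examined, and their part in it was not tested. Above klf15.L, the last peak within 1 Mb was followed by a gap of 1.48 Mb, the 23rd widest of 301 on 4L.

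Set against the other peaks on chromosomes, klf4.L thus had more neighbours than most close by and fewer than most further out. Within 100 kb, 83.1% of chromosome peaks had as few neighbours as klf4.L or fewer, while within 2 Mb the share was 21.7%. For klf15.L, with 5, 7, 9 and 13 neighbours within 100 kb, 500 kb, 1 Mb and 2 Mb, the shares were 94.7%, 85.4%, 76.1% and 65.2%. At 100 kb, 500 kb and 1 Mb, the count for klf15.L was therefore at or above the upper quartile over chromosome peaks. That quartile was 2 within 100 kb, 5 within 500 kb and 9 within 1 Mb. Closer than 50.7 kb, klf15.L had no neighbour. Of its 9 neighbours, 5 lay between 50.7 and 88.0 kb. The group of 4 peaks within 5.07 kb is among those 5, so the count and share within 100 kb depend on where a peak is taken to end. The share with these peaks joined was not computed.

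**Figure D3:**
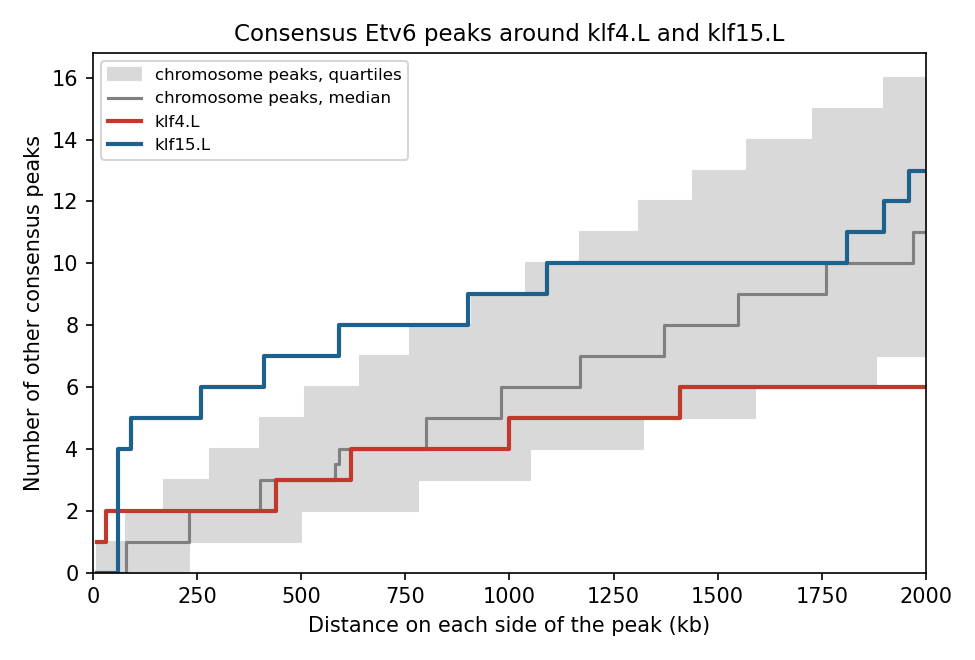
Number of other consensus peaks within a given distance on each side, in kb, for klf4.L (red) and klf15.L (blue), with the median (grey line) and quartiles (grey band) over the 6118 chromosome peaks. The klf4.L line ends at 6 peaks at 2 Mb, below the lower quartile of 7, while that of klf15.L ends at 13, between the median of 11 and the upper quartile of 16.

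Each consensus peak carries a number that rises along the file with gaps. What the numbers count is not stated. Within 1 Mb of klf4.L the numbers ran from 587 to 593, and 6 of the 7 were in the list, so 1 was missing. The missing one falls between the peak at 433 kb and klf4.L itself. Within 1 Mb of klf15.L they ran from 5883 to 5894, with 10 of 12 in the list. These shares were 85.7% (exact 95% confidence interval 42.1 to 99.6%) and 83.3% (51.6 to 97.9%), counting error only, against 40.2% for all of chromosome 1L and 43.2% for 4L. A stretch that begins and ends at listed peaks tends by construction to a higher share than a whole chromosome. The intervals do not allow for this, nor for any dependence between neighbouring numbers, so their stated coverage does not hold. Measured in the same way around each of the 5143 chromosome peaks with at least 3 neighbours, the median share was 64.1%, with quartiles at 54.5 and 74.2%, and 93.5% and 91.9% of these peaks had a share no higher than klf4.L and klf15.L. A high share was not particular to klf4.L and klf15.L. Among the other genes compared below, it was 87.5% around sp8.S and 83.3% around foxo3.L, but 63.2% around klf11.L and 55.6% around foxo3.S. In the 5.77 Mb without peaks above klf4.L, 6 numbers were missing.

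Of the 43 genes of the Klf and Sp families that the RefSeq table names (klf1 to klf18 and sp1 to sp9 in their L and S copies), 4 were listed as direct targets, namely klf4.L, klf15.L, klf11.L and sp8.S. By symbol, 258 of 34476 protein-coding names in that table (0.748%) were matched to a direct target. Direct targets listed under locus names went unmatched, so the 9.30% among Klf and Sp genes is not comparable with that share and was not tested. The peak of klf11.L, which encodes a transcriptional repressor induced by TGF-beta in mammals, lay at chr5L:138024473-138025297 and was 826 bp long. Like klf4.L, it had a close neighbour, at 1.35 kb, and unlike klf4.L it had 11 other peaks within 1 Mb. The peak of sp8.S, a gene of limb and forebrain patterning in the mouse, lay at chr6S:31250807-31251574 and was 769 bp long. Its nearest neighbour was 255 kb away, and all 6 of its neighbours within 1 Mb were on the side of higher positions. The klf15.L peak was thus the shortest of the 4 and the klf4.L peak the next.

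Foxo3, a forkhead factor, is the other regulator of vegfa that the study followed, in its case as a gene repressed by Etv6. Beside the peak lengths of 896 bp at foxo3.L and 292 bp at foxo3.S, those of klf4.L and klf15.L were intermediate. Within 1 Mb, foxo3.L and foxo3.S had 4 other peaks each, against 5 at klf4.L and 9 at klf15.L. A long peak, of 3548 bp, was also within 1 Mb of foxo3.S, as one of 2835 bp was for klf15.L. The lengths at klf4.L and klf15.L thus lay inside the range of the foxo3 copies, and the neighbour counts within 1 Mb lay above it. Within 2 Mb, however, foxo3.L had 6 neighbours, as klf4.L did, and foxo3.S had 13, as klf15.L did. Within 100 and 500 kb, foxo3.L had 2 and 3 neighbours, again the counts of klf4.L. More neighbours than most within 100 kb and fewer than most within 2 Mb were thus not particular to klf4.L. With so few loci no test was made.

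By the sum of differences in percentile of length, distance to the nearest peak and number of peaks within 1 Mb, the direct target peaks most like that of klf4.L, among 515 on chromosomes, were those of osgin2.S (667 bp, nearest peak at 0.153 kb, 5 neighbours) and tuba4b.L (701 bp, 23.2 kb, 5 neighbours). The sums were 5.34 and 14.6 percentile points. Those most like klf15.L were the peaks of rere.S (511 bp, 65.1 kb, 8 neighbours), with a sum of 12.7, and of LOC101731986.L (551 bp, 45.9 kb, 10 neighbours), with a sum of 14.3. The measure uses the layout of the list alone.

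The S copies, klf4.S and klf15.S, are not named in the table of direct targets, which says nothing on whether Etv6 binds them. The study does show Etv6 binding at the TSS region of klf4.S, and the peak concerned was not identified here. On 4S, klf15.S lies in RefSeq gene order between cacna2d2.S and mcm2.S, so that mcm2 flanks both copies of klf15. The peaks of these genes bound 7.07 Mb of chromosome 4S in v9.1, with 14 consensus peaks in between, from 336 to 1157 bp long with a median of 428 bp. None of the 14 was a direct target peak, and none could be assigned to klf15.S from gene order alone. The corresponding interval of klf15.L, of 7.30 Mb, held 17 peaks with a median of 538 bp. For klf4.S the flanking direct targets are too far apart to give an interval of use.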

How the data were processed

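Etv6 ChIP-seq was performed on 3 ChIP and 3 matched input samples of stage 22 somites. The authors trimmed reads with Trimmomatic 0.32, mapped them to X. laevis v9.1 with BWA 0.7.12, and called peaks in each ChIP against its input with MACS2 (default settings). DiffBind then merged these sets and retained peaks present in all 3. The deposited list gives the start, end and running number of each peak. The deposited score is 0 throughout and was not used. It has 0 columns of per-sample values, so the list shows no depth, and no replicate error, background in inputs or test between samples was available.

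Length is the deposited end minus start. Printed starts have 2 bp added, as in the study's table of direct targets, each of whose 545 peaks begins 2 bp after a deposited start. A printed interval is therefore slightly shorter than the stated length. Of the deposited starts, 303 lie below 0, so how starts were counted is uncertain, and lengths are uncertain by up to 2 bp. Distances run edge to edge. For the computations, only names and positions were taken from that table, and only gene names and order from RefSeq (v10.1). The direction of expression change is the study's and was not checked here. Promoter motif counts were not run, because no genome or promoter sequence was used here. Windows near chromosome ends were not corrected.

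Named genes are klf4.L and klf15.L, the Klf and Sp genes among direct targets, foxo3, direct targets within 1 Mb, the 2 nearest named genes on each side in RefSeq, and the 2 most similar direct target peaks per gene, besides the flanking direct targets and the genes near a peak over 2 kb, added later. Members, genes and measures were chosen with earlier results of these data known. Neighbour counts were checked on simulated positions. All simulated neighbours lay towards higher positions and well inside 1 Mb, so counting at the edge of the window and on the lower side was not checked. Computations used Python 3.11.15 with pandas 2.3.3, NumPy 2.4.6 and SciPy 1.17.1, and figures Matplotlib 3.10.9.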

Additional observations from a re-analysis of the deposited data

How the results depend on the processing

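No paired analysis was possible because values of single samples are not part of the list, and no replicate was left out for that reason. The promoter motif counts and their alternatives were not run, since no sequence was used here. Over 14 values, 20 of 44 alternatives left the value within its exact interval or within 1.5 times a count, or left a length or distance the same, and 24 moved it. For shares of peaks, the interval treats each peak of the list as an independent draw, which peaks are not. Whether a share moved is therefore a description and no measure of error. Any change in a length or distance, even of 2 bp, was counted as moved. The klf15.L neighbour count of 9 against 6 with merging was counted as within. The tally thus depends on these rules. With starts read 2 bp later, the klf4.L and klf15.L peaks measured 673 and 514 bp. Joining peaks up to 100 bp or 1 kb apart changed neither length. The share of peaks no longer than klf4.L was 70.5% among direct target peaks and 65.9% with peaks under 1 kb apart joined. For klf15.L it was 43.3% on chromosomes only, 43.7% among direct target peaks and 43.7% with merging. Between midpoints, the nearest peak was 3.44 kb from klf4.L and 52.4 kb from klf15.L. When peaks under 5 kb apart were joined, the 514 bp peak fused with that of klf4.L and the nearest other peak was 17.9 kb away.

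The width of the neighbourhood moved most values. At 100 and 500 kb, klf4.L had 2 and 3 neighbours, and at 100 kb klf15.L had 5. The share of chromosome peaks with no more neighbours than klf4.L was 83.1% at 100 kb, 56.6% at 500 kb and 21.7% at 2 Mb. For klf15.L it was 94.7%, 85.4% and 65.2%, and 78.3% among direct target peaks at 1 Mb. The median length of neighbours was 514 bp at 500 kb and 570 bp at 2 Mb for klf4.L, and 887 bp at 500 kb for klf15.L. Within 500 kb of klf15.L, 100% of the peak numbers were in the list, but within 2 Mb only 66.7% were. For klf4.L these shares were 80% and 87.5%. At 100 kb, 500 kb, 1 Mb and 2 Mb, klf15.L had more neighbours than klf4.L, but these widths are nested and count the same peaks again. Closer than 50.7 kb klf15.L had none, whereas klf4.L had peaks at 2.85 and 21.2 kb. With peaks under 1 kb apart joined, the counts within 1 Mb were 6 for klf15.L and 5 for klf4.L.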
